A study of Homo sapiens with 4 samples.

Results

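The survival and death genes of the BCL2 family were examined as anchors of H3K27ac-associated loops in M14 melanoma cells. The 10 genes were BCL2, BCL2L1, MCL1, BCL2A1, BCL2L11, BAX, BBC3, PMAIP1, BMF and BID. A loop was assigned to a gene when an annotated transcript start of that gene lay in one of its 5 kb anchors, and this rule found 21 of the 27289 WT loops and 18 of the 25621 STAG2-KD loops. Both groups were M14 cells, a human melanoma line that expressed an inducible shRNA directed at the cohesin subunit STAG2. STAG2-KD cells received doxycycline for 5 days and WT cells did not, so the drug and the knockdown cannot be told apart in this comparison. The labels named 2 samples per group, and 1 loop list per group was analysed. HiChIP ligates chromatin fragments that lie close together and pulls down those carrying a histone mark, here acetylation of histone H3 at lysine 27, which is found at active promoters and enhancers. The lists held positions without read numbers, so the depth behind a loop is unknown, no p-value was computed, and intervals cover the counting of loops only.

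BCL2 family proteins decide at the outer mitochondrial membrane whether a cell survives. Survival members such as BCL2, BCL-XL (the product of BCL2L1), MCL1 and BCL2A1 hold the pore-forming protein BAX and the BH3-only proteins in check. BH3-only proteins, among them BIM (BCL2L11), PUMA (BBC3), NOXA (PMAIP1), BMF and BID, bind the survival members or activate BAX directly, and BAX then opens the membrane to release cytochrome c. In melanocytes and melanoma, BCL2 and BCL2A1 are known targets of the lineage factor MITF, and BIM, BMF and PUMA are known to mediate death after inhibition of the BRAF pathway.

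Loops were found at the starts of 7 of the 10 genes, and BBC3 carried the most in both lists. In WT, 6 genes had a loop (39.1% of all 19229 protein-coding genes did), and in STAG2-KD, 5 genes had one (36.8% of all). A loop in at least 1 list was found at 44.5% of all protein-coding genes. PMAIP1, BMF and BID had 0 loops at their starts in either list, as had 55.5% of all genes. BCL2L1, BAX and BBC3 were the 3 genes with a shared loop, defined as the same bins at both anchors, against 24.7% of all genes. The same 3 genes had 5 or more WT loops, which 8.46% of all genes reached. With BCL2L11, 4 genes had loops in both lists, against 31.3% of all genes. With 10 genes, each gene weighs 10 points in such a share.

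**Figure D1:**
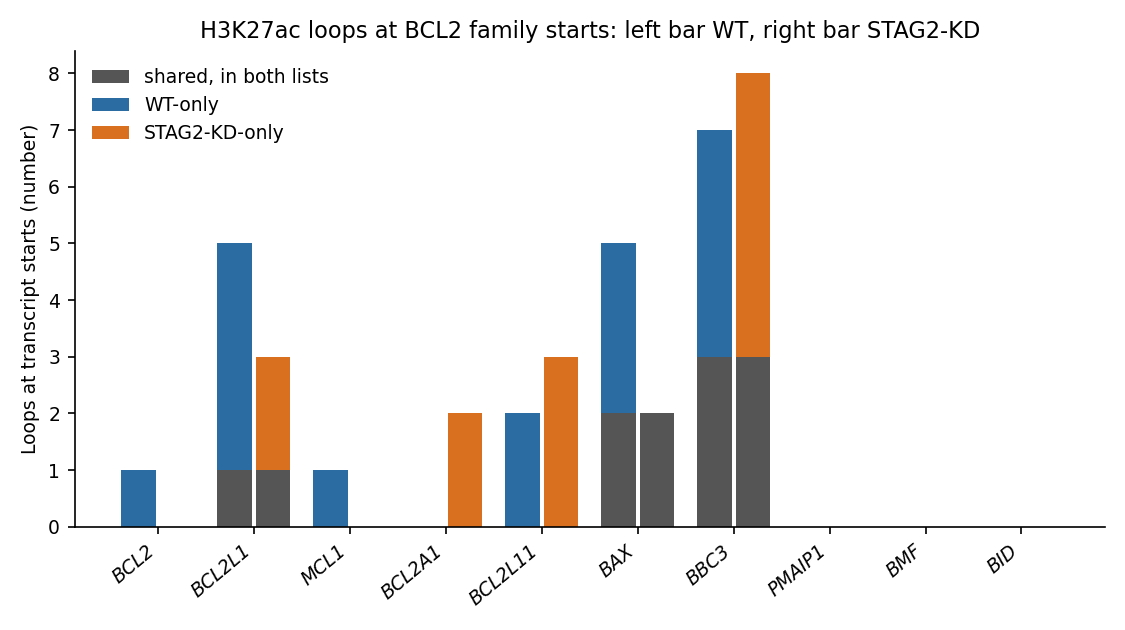
Number of loops (y axis) at the transcript starts of each gene (x axis), with the WT list as the left bar and the STAG2-KD list as the right bar. Grey parts are loops found in both lists, and blue and orange parts are loops of 1 list; BBC3 reaches 7 in WT and 8 in STAG2-KD, while PMAIP1, BMF and BID stay at 0.

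Of the 33 distinct loops, 6 were shared, 15 were found in WT alone (WT-only) and 12 in STAG2-KD alone (STAG2-KD-only). The totals of 21 WT loops (exact Poisson interval 13.0 to 32.1) and 18 STAG2-KD loops (10.7 to 28.4) overlapped in their counting intervals. Shared loops made up 28.6% of the WT loops, with an exact binomial interval (95%) from 11.3 to 52.2, and 33.3% of the loops in STAG2-KD (13.3 to 59.0). Over all protein-coding starts these shares were 41.2% and 43.4%, and both lay inside the intervals of the family, so no difference was detectable with so few loops. Without BBC3, the shares were 21.4% and 30.0%. With a shift of up to 2 bins allowed at either anchor, a counterpart existed for 10 of the 21 loops in WT and for 11 of the 18 in STAG2-KD, against 52.0% and 55.2% over all protein-coding starts.

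The direction of the counts differed between genes. WT exceeded STAG2-KD at 4 genes, BCL2, BCL2L1, MCL1 and BAX, as at 19.4% of all genes. STAG2-KD exceeded WT at 3 genes, BCL2A1, BCL2L11 and BBC3, as at 15.3% of all genes. These directions rest on few loops. With starts within 5 kb of an anchor BCL2L1 had 8 WT loops and 9 in STAG2-KD, and in the earlier 50% of each chromosome's lines BAX had 1 in each list and BCL2, MCL1 and BCL2A1 had 0. With the 5′ end of the gene record alone BBC3 had 0 in both. Among the 5 members with 2 or more loops in the larger list, BAX had at least 2 times as many in WT (28.0% of such genes did) and BCL2A1 at least 2 times as many in STAG2-KD (20.2% of such genes did). Of the 7 genes with a loop, BCL2 and MCL1 had theirs in WT alone (17.3% of all genes with a loop) and BCL2A1 in STAG2-KD alone (12.3%).

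**Figure D2:**
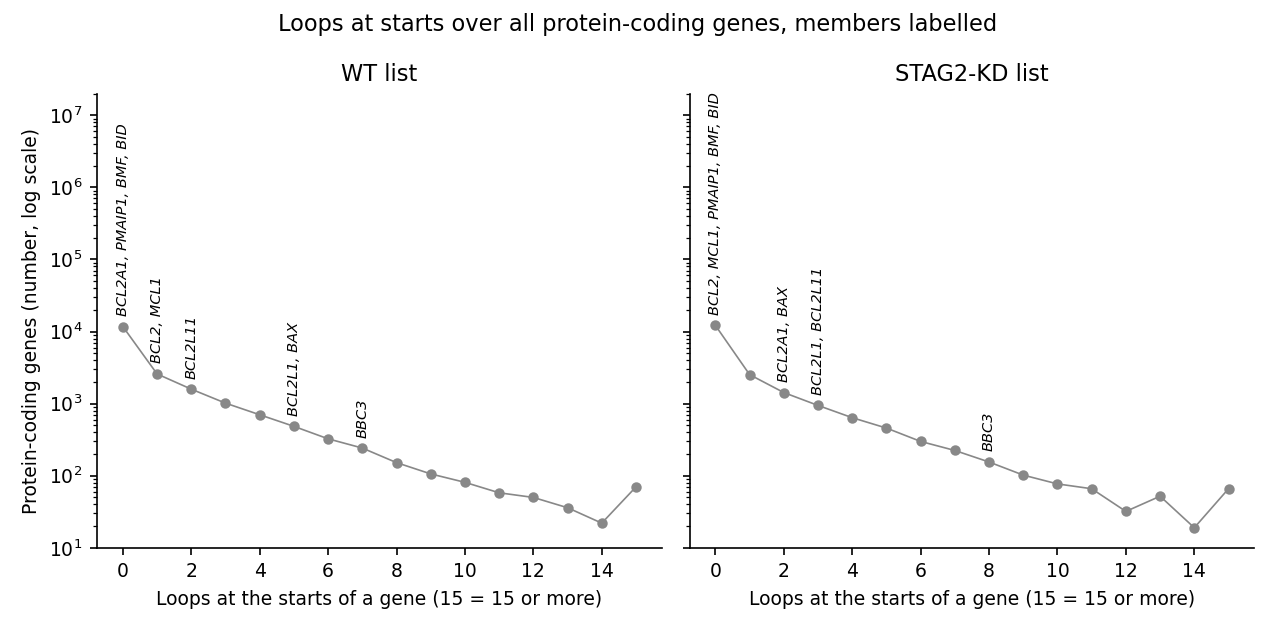
Number of protein-coding genes (y axis, log scale) by the number of loops at their starts (x axis), in WT and STAG2-KD, with the family members written above their count. The last point pools genes with 15 or more loops, and of the members BBC3 stands farthest to the right in both lists, at 7 and 8 loops.

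BCL2, the founding survival gene, had 1 loop in WT and 0 in STAG2-KD. It lies on the minus strand of chr18:60790579-60987361 (hg19, ENSG00000171791), and 4 of its 7 distinct starts fall in the bin chr18:60985001-60990000. The WT-only loop ran 20 kb, the shortest distance in the lists, to chr18:60965001-60970000 inside the gene, where no other transcript starts. Neither bin was an anchor in the STAG2-KD list, and the 2 bins with internal BCL2 starts had 0 loops in both. The nearest STAG2-KD anchor, chr18:61000001-61005000, lay 12640 bases upstream of the gene start and holds the start of KDSR, an enzyme of sphingolipid synthesis. This region was sparse, with 2 WT and 2 STAG2-KD loops inside 250 kb to each side of the BCL2 start. On chromosome 18, 59.0% of protein-coding genes had 0 loops in either list.

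MCL1, which encodes a short-lived survival protein, likewise had 1 loop in WT and 0 in STAG2-KD. The gene occupies chr1:150533371-150552214 on the minus strand (ENSG00000143384). Its WT-only loop ran 230 kb upstream from chr1:150550001-150555000 to chr1:150780001-150785000, which holds a start of CTSK, the gene of the protease cathepsin K, and part of ARNT. The CTSK bin was an anchor in both lists, with 3 loops in WT, the MCL1 loop included, and 2 in STAG2-KD. The MCL1 start bin was an anchor in WT alone. In STAG2-KD the nearest anchor lay 12214 bases inside the gene.

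BCL2L1, the gene of BCL-XL, had 5 WT loops against 3 in STAG2-KD, and 1 loop was common to both. Only 1 of its 2 start bins, chr20:30310001-30315000, carried loops. The gene lies on the minus strand of chr20:30252255-30311792 (ENSG00000171552), and all 7 distinct loops pointed in the direction of transcription, over 60 to 180 kb. The shared loop joined the start to chr20:30190001-30195000 at 120 kb, the bin of ID1, an inhibitor of differentiation-promoting transcription factors. The WT-only loops ended at the start of the protease gene HM13 at 180 kb, in stretches without a start at 105 and 90 kb, and at the 3′ end of BCL2L1 itself at 60 kb. The STAG2-KD-only loops ended at 80 kb, within COX4I2, a subunit gene of cytochrome c oxidase, and at 65 kb, next to the 3′ end of BCL2L1. These 2 bins were not anchors in WT. With anchors allowed to shift by 2 bins, 4 of the 5 WT loops and all 3 STAG2-KD loops had a counterpart in the other list. The body of BCL2L1 was dense in anchors. Any anchor that touched the gene being counted, there were 12 loops in WT against 13 in STAG2-KD, and 2 were common to both. The bin chr20:30260001-30265000 in the gene had 0 loops in WT and 4 in STAG2-KD, and its neighbour chr20:30265001-30270000 had 2 in WT and 0 in STAG2-KD. These bins are 2 of several anchors in the gene, and how often such a split occurs over all anchors was not counted.

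A strict core of the motif of CTCF, the insulator protein that stops cohesin, was searched on both strands of all anchors because cohesin loops often end at such sites. It occurred in 4 of the 42 anchors of the family, against 3.25% of all 30601 anchors of the 2 lists. Of these 4 anchors, 3 belonged to BCL2L1 and 1 to BBC3, and all 4 cores lay on the plus strand. They are shown with the core in capitals: the BCL2L1 start anchor, the BCL2L1 partner anchors at 90 kb (WT-only) and 65 kb (STAG2-KD-only), and the BBC3 partner anchor at 150 kb (STAG2-KD-only).
BCL2L1 start anchor chr20:30313630-30313658 plus strand: ttgggagcCCAGCAGAGGGCAgataaact
BCL2L1 partner at 90 kb chr20:30222216-30222244 plus strand: cagagtgaCCAGCAGAGGGCGctgggccc
BCL2L1 partner at 65 kb chr20:30249514-30249542 plus strand: tcctgtggCCACCAGGGGGCAgtgaagcc
BBC3 partner at 150 kb chr19:47582735-47582763 plus strand: tggagcctCCAGCAGGGGGCAgtcctcag
A match says that the letters are present, and CTCF binding was not measured in these lists.

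For 4 genes with 2 or more distinct loops, BCL2L1, BAX, BCL2L11 and BCL2A1, 250 bases are printed here. They precede the most upstream start in the start bin with the most loops. These bins carry the loops described, except that both WT loops of BCL2L11 lie in its other start bin. Sequences are from GRCh37, 5′ to 3′ on the strand of the gene, and end at the base before the start. This start is that of the canonical transcript at BCL2A1 but not at BCL2L1, BAX and BCL2L11. Capitals mark matches on either strand to the E-boxes CACGTG (a palindrome) or the variant CATGTG, the kinds of site that MITF binds. They also mark matches to the GC box GGGCGG, to the TATA box TATAAA, to the AP-1 site TGACTCA, to the ETS site CCGGAAG or to the CTCF core.
BCL2L1 chr20:30311793-30312042 minus strand: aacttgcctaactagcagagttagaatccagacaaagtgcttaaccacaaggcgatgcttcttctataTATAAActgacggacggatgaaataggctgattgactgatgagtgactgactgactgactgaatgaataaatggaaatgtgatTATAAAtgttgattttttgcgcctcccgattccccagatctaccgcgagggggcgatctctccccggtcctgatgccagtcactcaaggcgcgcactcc
BAX chr19:49457822-49458071 plus strand: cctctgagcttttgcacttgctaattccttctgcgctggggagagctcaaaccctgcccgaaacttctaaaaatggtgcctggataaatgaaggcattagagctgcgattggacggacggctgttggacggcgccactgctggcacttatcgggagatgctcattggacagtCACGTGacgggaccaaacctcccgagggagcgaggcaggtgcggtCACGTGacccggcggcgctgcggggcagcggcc
BCL2L11 chr2:111876705-111876954 plus strand: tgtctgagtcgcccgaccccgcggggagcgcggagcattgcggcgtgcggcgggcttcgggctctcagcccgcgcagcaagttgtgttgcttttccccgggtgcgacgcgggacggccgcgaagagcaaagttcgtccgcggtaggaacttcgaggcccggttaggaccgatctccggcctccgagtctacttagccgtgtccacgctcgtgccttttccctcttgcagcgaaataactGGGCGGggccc
BCL2A1 chr15:80263539-80263788 minus strand: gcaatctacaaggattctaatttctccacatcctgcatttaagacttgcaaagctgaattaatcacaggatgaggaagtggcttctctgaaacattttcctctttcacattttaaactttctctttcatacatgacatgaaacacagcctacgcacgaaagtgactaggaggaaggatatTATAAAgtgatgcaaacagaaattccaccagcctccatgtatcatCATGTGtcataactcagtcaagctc
None of these windows overlapped an annotated exon. The 4 windows differed in base composition, from 66.8% G and C at BCL2L11 to 38.8% at BCL2A1. The BCL2L11 window held 1 match to GGGCGG, at position -11 from the start. This motif occurred in 48.9% of windows of this length over all 19229 protein-coding genes. The BAX window held 2 CACGTG sites, at -78 and -33, a motif in 7.09% of all windows. TATAAA was found in the BCL2L1 window at -182 and -99 and in the BCL2A1 window at -70, against 10.1% of all. BCL2A1 also had CATGTG at -25, which was in 8.28% of all windows. TGACTCA (3.36% of all), CCGGAAG (8.97%) and the CTCF core (0.390%) were in 0 of these 4 windows.

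**Figure D3:**
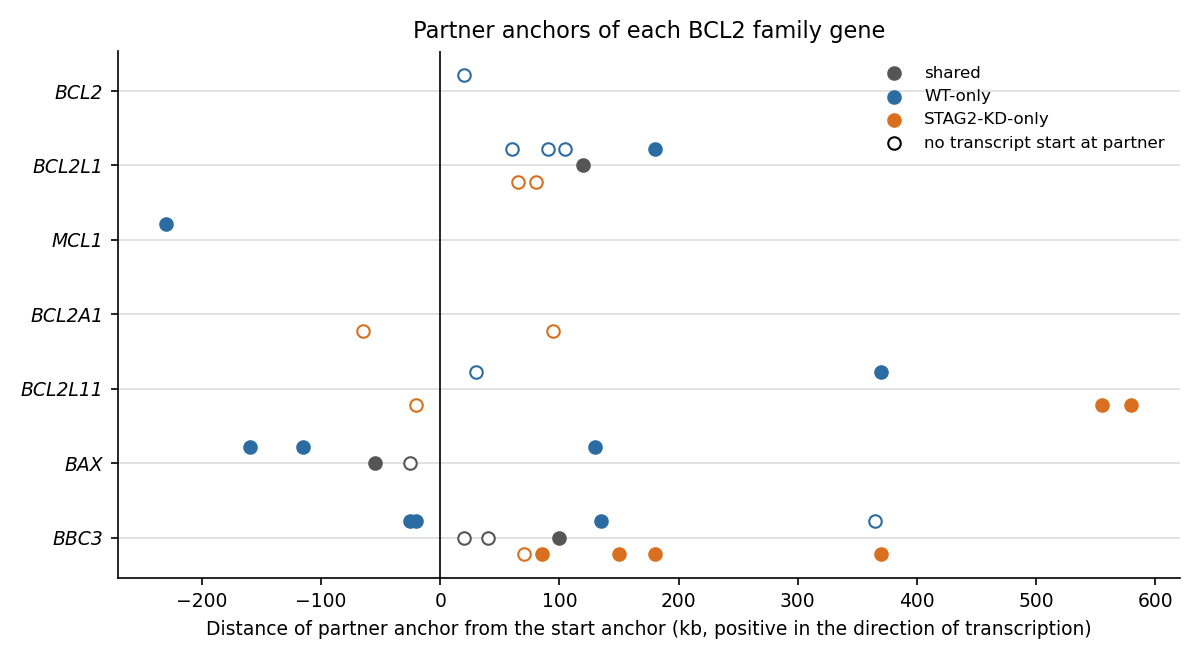
Distance of each partner anchor from the start anchor (x axis, kb, positive in the direction of transcription) for the 7 genes with loops (rows), with WT-only loops in blue above the line, shared loops in grey on it and STAG2-KD-only loops in orange below it. Filled points have a transcript start at the partner; all BCL2L1 partners lie on the positive side, and the BCL2L11 partners at 555 and 580 kb are the most distant.

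BCL2A1, the survival gene that MITF activates in melanocytes, had 0 loops in WT and 2 in STAG2-KD. The gene lies at chr15:80253234-80263538 on the minus strand (ENSG00000140379), with both of its starts in chr15:80260001-80265000. The STAG2-KD-only loops ran 95 kb to chr15:80165001-80170000, within the folate enzyme gene MTHFS, and 65 kb to chr15:80325001-80330000, which touches no protein-coding gene. Both had a WT loop within 2 bins, and those WT loops ended at chr15:80270001-80275000, an anchor upstream of the gene. This upstream anchor was singled out after its values were seen. This bin had 15 WT loops against 5 in STAG2-KD, and all 5 STAG2-KD loops were shared. Among 483 anchors with 10 or more WT loops, 7.87% had at least 3 times as many WT as STAG2-KD loops. The shared loops of the upstream anchor ran 20 to 265 kb, and 1 of them ended at the start of ZFAND6. Its 10 WT-only loops ran 45 to 635 kb, to starts of MTHFS, ST20-MTHFS, FAH and ARNT2 among other bins. The bin of the BCL2A1 start and the upstream anchor are 10 kb apart, and a loop between them could not appear because the lists begin at 20 kb. In WT the anchor nearest to the gene start lay within BCL2A1, 3538 bases away, and its 1 loop ran 105 kb to the start of ZFAND6.

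BAX, the pore-forming effector, had 5 loops in WT and 2 in STAG2-KD, and both STAG2-KD loops were shared. All 6 of its distinct starts lie in chr19:49455001-49460000, and the gene covers chr19:49458072-49465055 on the plus strand (ENSG00000087088). The shared loops ran upstream, 25 kb to a bin without a start and 55 kb to chr19:49400001-49405000, which holds starts of NUCB1 and TULP2. The WT-only loops reached the start of PLEKHA4 at 115 kb and a bin in BCAT2, an enzyme of branched-chain amino acid breakdown, at 160 kb, both upstream. The remaining WT-only loop ran 130 kb downstream to the start of SNRNP70, which encodes a spliceosome protein. All 3 of these partner bins were also anchors in STAG2-KD, with fewer loops there. The numbers, WT first, were 5 against 2 at BCAT2, 3 against 1 at PLEKHA4 and 9 against 5 at SNRNP70. Each WT number includes the WT-only BAX loop by which the bin was chosen, so part of the excess follows from that choice. None of the WT-only loops had a STAG2-KD loop within 2 bins. The bin chr19:49465001-49470000 starts 10 kb after the BAX start bin and holds the end of BAX and the start of the ferritin gene FTL. It had 4 WT loops against 2 in STAG2-KD, none of them common to both. Its WT-only loop of 60 kb and its STAG2-KD-only loop of 65 kb ended in adjacent bins.

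BBC3, the gene of PUMA, had 7 WT loops against 8 in STAG2-KD, and 3 were common to both. At least 7 WT loops were found at 4.25% of all protein-coding genes and at least 8 STAG2-KD loops at 2.96%. The gene lies at chr19:47724079-47736023 on the minus strand (ENSG00000105327). Its loops were not at the 5′ end of the gene record. The bin chr19:47735001-47740000, which holds the most upstream start at 47736023, had 0 loops in both lists. The bin chr19:47730001-47735000, with the start of the canonical coding transcript at 47734456, had 6 loops in WT and 8 in STAG2-KD. The bin chr19:47725001-47730000, with the start of a retained-intron transcript, had 1 in WT and 0 in STAG2-KD.

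The 3 shared BBC3 loops ended in or at SAE1, the neighbouring gene, which encodes a subunit of the SUMO-activating enzyme. They spanned 20, 40 and 100 kb, and the longest reached a start of SAE1 at chr19:47630001-47635000, a bin with 9 loops in each list. The STAG2-KD-only loops were all on the same side of BBC3. They ended within SAE1 at 70 kb, at another start of SAE1 at 85 kb and within ZC3H4 at 150 kb. The longer ones reached the start of TMEM160 at 180 kb and the start of ARHGAP35 at 370 kb. Of the 4 WT-only loops, 2 pointed this way, at 135 kb to a start of ZC3H4 and at 365 kb into ARHGAP35. The other two pointed upstream of BBC3, at 20 kb and at 25 kb to the start of CCDC9. Over all its loops, the CCDC9 bin had 5 in WT, the BBC3 loop included, against 1 in STAG2-KD. The long WT and STAG2-KD loops to ARHGAP35 ended in adjacent bins, so they counted as private although they lay within 1 bin of each other. The anchors of BBC3 were also joined among themselves. Between its 14 anchors, leaving out loops at BBC3 starts, there were 12 loops in WT and as many in STAG2-KD, and 7 were common to both.

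Both chromosome 19 members, BAX and BBC3, had loops in both lists. On that chromosome 48.1% of protein-coding genes had a loop in at least 1 list. Within 250 kb to each side of the start, BBC3 had 28 WT loops against 30 in STAG2-KD (15 common), and BAX 24 against 19 (11 common).

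BCL2L11, the gene of BIM, had 2 WT loops against 3 in STAG2-KD, and 0 were the same or matched within 2 bins. It was the 1 gene without a shared loop among the 4 members that had loops in both lists, as 21.1% of all such genes were. The gene lies on the plus strand of chr2:111876955-111926021 (ENSG00000153094), and its starts fall in a pair of adjacent bins. All 3 STAG2-KD loops used the upstream bin chr2:111875001-111880000, which holds the 5′ end of the gene, and both WT loops used chr2:111880001-111885000. In WT the loops ran 30 kb within the gene and 370 kb to a start of the noncoding gene MIR4435-2HG. In STAG2-KD they ran 20 kb upstream into ACOXL, and 555 and 580 kb downstream to bins in ANAPC1, a subunit gene of the anaphase-promoting complex. With the BCL2L11 loops themselves counted, the bin at 580 kb had 2 WT loops against 6 in STAG2-KD, and the bin at 555 kb 0 and 1. The loops of 555 and 580 kb were the longest of the family.

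PMAIP1, BMF and BID had 0 loops at their starts, but anchors lay near all 3. At PMAIP1 (chr18:57567228-57571537, plus strand, ENSG00000141682), the bin that holds the 3′ part of the gene, chr18:57570001-57575000, carried 1 loop of 20 kb to chr18:57550001-57555000 in both lists. This shared loop passes over the start, and the bin lies 2773 bases from it. The bin at the far end had 1 further loop in STAG2-KD, to a bin 35 kb away.

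At BMF (chr15:40380091-40401093, minus strand, ENSG00000104081), the bin chr15:40390001-40395000 inside the gene had 7 WT loops against 3 in STAG2-KD, and 2 were common to both. The shared loops spanned 20 and 35 kb. The STAG2-KD-only loop ran 60 kb to the start of SRP14, a protein of the signal recognition particle. The WT-only loop of 55 kb ended in the adjacent bin, so these loops counted as private although they lay within 1 bin of each other. The WT-only loops ran 55 to 475 kb, and 1 of them ended at starts of PAK6 and BUB1B at 115 kb. The bin lies 6093 bases from the 5′ end of BMF and within 5 kb of its internal starts.

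BID (chr22:18216904-18257536, minus strand, ENSG00000015475) had no anchor within its gene. The nearest anchor to its start in both lists, chr22:18205001-18210000, lay 47536 bases away beyond the 3′ end. Its loops numbered 2 in WT against 4 in STAG2-KD. The shared loop of 20 kb and a STAG2-KD-only loop of 85 kb both ended at starts of BCL2L13, another BCL2 family gene.

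**Figure D4:**
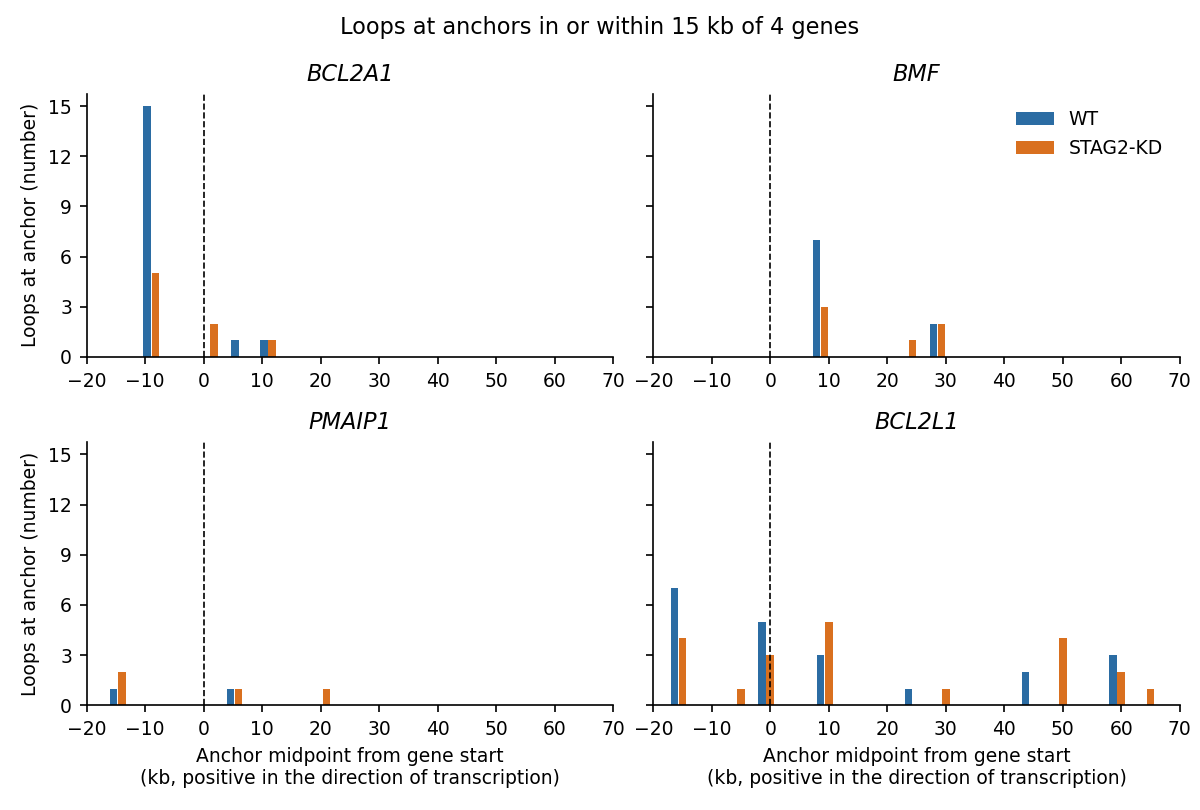
Loops at each anchor (y axis) that touches the gene or lies within 15 kb of it, by the position of its midpoint from the gene start (x axis, kb, positive in the direction of transcription), for BCL2A1, BMF, PMAIP1 and BCL2L1, with WT in blue and STAG2-KD in orange. The tallest bars are the WT loops of the anchor upstream of BCL2A1, 15 against 5 for STAG2-KD; the bin within BMF has 7 against 3 and the one at the start of TPX2, upstream of BCL2L1, 7 against 4.

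Distances of the family's loops were near those of other genes. The median distance was 100 kb in WT (range 20 to 370 kb) and 82.5 kb in STAG2-KD (range 20 to 580 kb), against 90 and 85 kb over all protein-coding starts. The 6 shared loops had a median of 47.5 kb and a longest distance of 120 kb, while medians were 115 kb for loops of WT alone and 90 kb for those of STAG2-KD alone. Over all protein-coding starts the medians were 75 kb for shared loops and 100 kb for those of either list alone, so shared loops were the shorter ones there too. Over 300 kb there were 2 WT-only and 3 STAG2-KD-only loops, at BBC3 and BCL2L11.

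A transcript start lay at the partner anchor of 12 of 21 WT loops, or 57.1% (34.0 to 78.2), and of 9 of 18 STAG2-KD loops, or 50.0% (26.0 to 74.0). Among loops of all protein-coding starts, 43.5% and 42.8% had a start at both anchors, inside those intervals. The measures are not alike, because a background loop with protein-coding starts at both anchors counted once. Taken from each protein-coding anchor in turn, the background share would be higher, and it was not computed. The partner start belonged to a protein-coding gene in 9 WT and 6 STAG2-KD loops. No loop joined 2 members of the family or a member and the start of any of the 43 other apoptosis genes examined on chromosomes 1 to 22.

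Private loops were then separated by whether their anchors occurred in the other list. Of the 15 WT-only loops, 10 had their member start bin and 13 had their partner bin as an anchor in STAG2-KD, and 10 had both. Of the 12 STAG2-KD-only loops, 7 had the start bin and 7 the partner bin as an anchor in WT, and 3 had both. The 10 WT-only loops with such a start bin lay at BCL2L1, BAX and BBC3, and the 7 STAG2-KD-only loops at BCL2L1 and BBC3. Loops of the same gene shared a start bin there, so they were not independent. These anchor counts were not made over all protein-coding starts. Whether the difference between the lists is particular to the family was therefore not tested. A loop of the other list lay within 2 bins for 4 of the WT-only loops and 5 of the STAG2-KD-only ones.

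Other genes of the pathway were counted by the same rule. Of the 46 genes in the 5 lists, 43 lay on chromosomes 1 to 22, for which the lists hold loops. Of these 43, 24 had a WT loop, 23 a STAG2-KD loop, 20 a shared loop and 17 had 0 loops, where all protein-coding genes gave 39.1%, 36.8%, 24.7% and 55.5%. More WT than STAG2-KD loops were found at 12 genes and the reverse at 7, against 19.4% and 15.3% of all genes. Among the 11 other BCL2 family genes, 5 had loops in each list, with a median of 0 loops per gene in both. BAD, a BH3-only gene, and BIRC2, an inhibitor of apoptosis, had the most over both lists. BAD had 9 WT loops against 8 in STAG2-KD (5 common), and BIRC2 had 5 against 12 (4 common). In the mitochondrial death machinery 7 of 10 genes had a WT loop and 6 a STAG2-KD loop, with medians of 2.5 and 2 loops per gene. Among regulators of the family 6 of 9 had a WT loop and 7 a STAG2-KD loop, with medians of 3 and 2. In the death receptor route 4 of 8 genes had a WT loop and 2 a STAG2-KD loop, with medians of 0.5 and 0. Among inhibitors of apoptosis 2 of 5 had a WT loop and 3 a STAG2-KD loop, with medians of 0 and 1. More WT loops were found at 2 of the 11 other BCL2 family genes, 3 of the 10 genes of the mitochondrial machinery, 3 of the 9 regulators, 4 of the 8 genes of the death receptor route and 0 of the 5 inhibitors of apoptosis. More STAG2-KD loops were found at 1, 1, 2, 0 and 3 genes of these lists, in the same order. Named after their values were seen, the 4 death receptor genes were CASP8, CASP10, CFLAR and RIPK1, and the 3 inhibitors were BIRC2, BIRC3 and BIRC6. Differences between the lists were not tested. CASP8, CASP10 and CFLAR are neighbours, as are BIRC2 and BIRC3, so a loop at or between their starts can count for several of them. The median over all protein-coding genes was 0 in both lists.

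Counts of shared, WT-only and STAG2-KD-only loops like those of the best-connected members were found at other genes. The BBC3 counts of 3, 4 and 5 were matched exactly at 3 genes, ACVR1, CIC and UPP2. The BCL2L1 counts of 1, 4 and 2 were matched at 15 genes, the first in alphabetical order being ANKS1A, ANO6 and GLCE. The BCL2L11 counts of 0, 2 and 3 were matched at 42 genes, starting with ANK2, ANKRD10 and APRT. These likenesses rest on 2 lists.

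The labelled cell type was checked at the starts of lineage genes. Of 9 melanocyte markers, 8 had a WT loop and 7 a STAG2-KD loop; TYR had 0 in both and DCT 0 in STAG2-KD. KRT14 and CD3E, markers of a keratinocyte and of a T cell, also had loops in both lists, so a loop at a start was not restricted to genes of the lineage. The lists hold loop positions and no RNA or protein values, so the knockdown could not be checked here. STAG2 itself lies on chromosome X, for which the lists hold no loops.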

How the data were processed

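H3K27ac HiChIP loops of M14 cells were analysed as 1 list per group, filed under replicate 1 of WT and of STAG2-KD. Per the labels and methods, the authors aligned reads to hg19 with HiC-Pro, called peaks with hichip-peaks and loops with FitHiChIP; the methods state a false discovery limit for peaks and another for loops entering the differential analysis, but versions, whether that limit holds for these lists and whether replicates were merged are not given in the sources used here. The deposited lists have 3 columns (chromosome, left end and right end of the loop) and no count or score. A missing loop can therefore be one just short of the caller's limit.

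Positions are printed counted from 1, and each anchor was taken as 5 kb wide. Transcript starts came from GENCODE release 44 lifted to GRCh37, the build of hg19, and 0 loops ran past a chromosome end. Loop distance is the distance between anchor starts. Shares carry exact Clopper-Pearson intervals at 95%, and no test was made between single lists. All protein-coding genes of chromosomes 1 to 22 gave the background. Sequences were read from GRCh37, and of the 10 genes 9 were in the RefSeq promoter table (GRCh38), which was not used for printing; MCL1 was not. The window before the looped BBC3 start and 1 marker gene are not reported here. The loop assignment was tested on simulated data. The members and lists were chosen with earlier results of these data known. By rule, all members and all loops of members with at most 12 distinct loops were described, with protein-coding starts at the partner. Of other apoptosis genes, those joined to a member and the 2 with the most loops were named, and for the 3 members with the most loops (BCL2L11 before BAX at equal numbers) up to 3 genes with the nearest counts. The work used Python 3.11.15 with pandas 2.3.3, numpy 2.4.6 and scipy 1.17.1, and figures were drawn with matplotlib 3.10.9.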

Additional observations from a re-analysis of the deposited data

How the results depend on the processing

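No paired analysis was possible because only 1 loop list represented each group, so leaving out a replicate was not possible either. Of 38 values under alternatives for the main comparisons, 12 moved and 26 did not, where a count moved when it changed by over 1.5 times and a share or median when it left its 95% interval. The definition of a start moved the counts by its construction. With the 5′ end of the gene record alone there were 12 WT, 10 STAG2-KD and 3 shared loops, because the BBC3 loops and the WT loops of BCL2L11 lie at internal starts. With starts within 5 kb of an anchor there were 33, 28 and 10, the gains being at BCL2L1, BMF, PMAIP1 and BCL2A1. In the earlier 50% of each chromosome's lines there were 10 WT and 11 STAG2-KD loops, so the order of the lists turned, and 4 members had a loop; the cause was not tested. Within 2 bins, 10 WT and 11 STAG2-KD loops were matched, the latter 61.1% of the list. The sharing without BBC3 and the percentages within 2 bins were added after seeing the data. Scaling the WT count to the STAG2-KD list size gave 19.7 loops. Median distances and partner shares stayed inside their intervals under each alternative run on them. Of 160 values for single members, 23 moved; with counts of 0 to 8, a change of 1 or 2 loops suffices. The lists allow no statement on loop strength, and contacts under 20 kb are outside them.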
